A study of Homo sapiens with 6 samples.

Results

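Regions that were highly methylated in control HepG2 cells and lower in cells overexpressing DNMT3A were examined in reduced representation bisulfite sequencing (RRBS) data. HepG2 is an established human liver tumour cell line. The control group was labelled WT and infected with a control lentivirus, and the other group was infected with a lentivirus that overexpresses DNMT3A. There were 3 libraries in each group. Every deposited list compares 1 overexpressing library with its same-numbered control, here called a pair. Members were chosen by the listed levels: a region was taken when its mean methylation level was at least 0.60 in the control library and lower in the overexpressing one. This gave 366 regions of 4344 listed, with 129 in pair 1, 130 in pair 2 and 107 in pair 3. The levels and drops of that pair are given as a description, with no test. The promoter driving the transgene and the number of clones are not stated in the labels, and DNMT3A expression was not analysed here. Nothing in the labels tells whether same-group libraries were separate cultures.

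DNMT3A is a de novo methyltransferase, which adds methyl groups to cytosines of CpG sites that lack them, whereas DNMT1 copies methylation to the new strand after replication. Methylation is lost when copying is incomplete over cell divisions, or when TET enzymes oxidise the mark. Most CpG sites outside CpG islands are methylated in vertebrate genomes, while CpG islands at gene starts are mostly unmethylated. In liver cancer cells many CpG islands carry methylation that normal hepatocytes lack.

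Sequence is shown for members that met a promoter window of the RefSeq table (GRCh38.p14), which runs from 250 bases before to 50 bases after a gene start. There were 30 such members and 32 such windows. All 32 windows held CCGG, the site cut by MspI, which reads the same on both strands. That site was in 63.1% of all 35116 windows of the table. The touched windows held a median of 33.5 CpG dinucleotides against 14 over all windows. RRBS reads fragments cut at CCGG, and windows met by gains or by losses from lower control levels were not counted. These values therefore do not set members apart from other listed regions. Bases below are on the plus strand, 5′ to 3′, limited to the part before the gene start, and capitals mark CpG dinucleotides. The first set are some of the members listed in more than 1 pair: the whole region beside the noncoding gene LOC124900405 (chr18:75455769-75455841), the RXRG part of pair 2 (chr1:165445127-165445275), the GNAS locus part beside LOC101927932 (chr20:58888811-58888984), and the parts at PLEKHG5 (chr1:6485479-6485550), SLC16A12 (chr10:89535776-89535837) and GRB10 (chr7:50783041-50783146). The regions at LOC124900405 and GNAS were lower in each pair that listed them. Those at RXRG, PLEKHG5, SLC16A12 and GRB10 were higher in another pair.

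LOC124900405: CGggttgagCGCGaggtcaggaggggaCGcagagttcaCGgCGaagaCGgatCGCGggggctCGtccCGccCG
RXRG: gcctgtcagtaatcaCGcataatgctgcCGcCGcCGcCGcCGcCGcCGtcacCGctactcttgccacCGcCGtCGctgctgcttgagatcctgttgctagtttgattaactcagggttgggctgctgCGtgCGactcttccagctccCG
LOC101927932 and GNAS: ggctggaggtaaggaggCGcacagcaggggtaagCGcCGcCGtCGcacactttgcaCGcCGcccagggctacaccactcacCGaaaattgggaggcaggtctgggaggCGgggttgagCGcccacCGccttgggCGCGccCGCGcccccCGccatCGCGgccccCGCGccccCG
PLEKHG5: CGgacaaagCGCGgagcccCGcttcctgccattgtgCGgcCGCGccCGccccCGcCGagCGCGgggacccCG
SLC16A12: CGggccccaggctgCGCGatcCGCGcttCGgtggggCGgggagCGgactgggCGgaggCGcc
GRB10: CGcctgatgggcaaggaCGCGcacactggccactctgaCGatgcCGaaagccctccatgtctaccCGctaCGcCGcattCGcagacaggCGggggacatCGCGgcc

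These stretches are rich in CpG: 12 dinucleotides in the 73 bases of LOC124900405, 15 in 149 of RXRG and 13 in 72 of PLEKHG5. The second set are members of 1 list only that ended close to an unmethylated level, at TMEM168 in pair 2 (chr7:112790394-112790412, from 0.857 to 0.0223), MXRA7 in pair 3 (chr17:76688730-76688963, from 0.646 to 0.0373) and PER1 in pair 2 (chr17:8152618-8152654, from 0.969 to 0.0356).

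TMEM168: gaCGgtaCGgaaCGcCGcc
MXRA7: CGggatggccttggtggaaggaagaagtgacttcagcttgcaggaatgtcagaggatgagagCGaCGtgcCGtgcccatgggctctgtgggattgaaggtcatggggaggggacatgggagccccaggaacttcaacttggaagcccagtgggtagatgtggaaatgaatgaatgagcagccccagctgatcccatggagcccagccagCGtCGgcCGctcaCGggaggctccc
PER1: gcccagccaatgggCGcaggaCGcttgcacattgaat

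This set was mixed: 4 CpG dinucleotides lay in the 19 bases shown of TMEM168, 8 in 234 bases at MXRA7 and 2 in the 37 bases of PER1.

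Mapped reads per library ranged from 25764323 to 29924507. The lists hold no reads per region, so the depth under each level is unknown and levels carry no interval. Listed regions that were lower in the overexpressing library made up 17.9%, 18.3% and 18.9% of lists 1, 2 and 3, and 18.4% of all listed regions. The members, all lower by the rule, were 48.5% of the losses of pair 1 (95% exact binomial interval 42.3 to 54.7), 49.6% of pair 2 (43.4 to 55.8) and 39.6% of pair 3 (33.8 to 45.7). The intervals express counting error over listed regions and nothing else.

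Members started high and mostly ended at intermediate levels. The control level had a median of 0.766 in pair 1, 0.756 in pair 2 and 0.760 in pair 3, and ran up to 0.979. The overexpressing level had medians of 0.387, 0.385 and 0.430. The median differences were -0.388, -0.381 and -0.407, a mean of -0.392 ± 0.0131 (SD, n = 3 pairs). Of the 366 members, 160 ended between 0.3 and 0.5 and 55 between 0.5 and 0.6, while 36 stayed at 0.6 or above. Only 24 ended under 0.1, a nearly unmethylated state. A control level of at least 0.9 was found at 50 members.

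**Figure D1:**
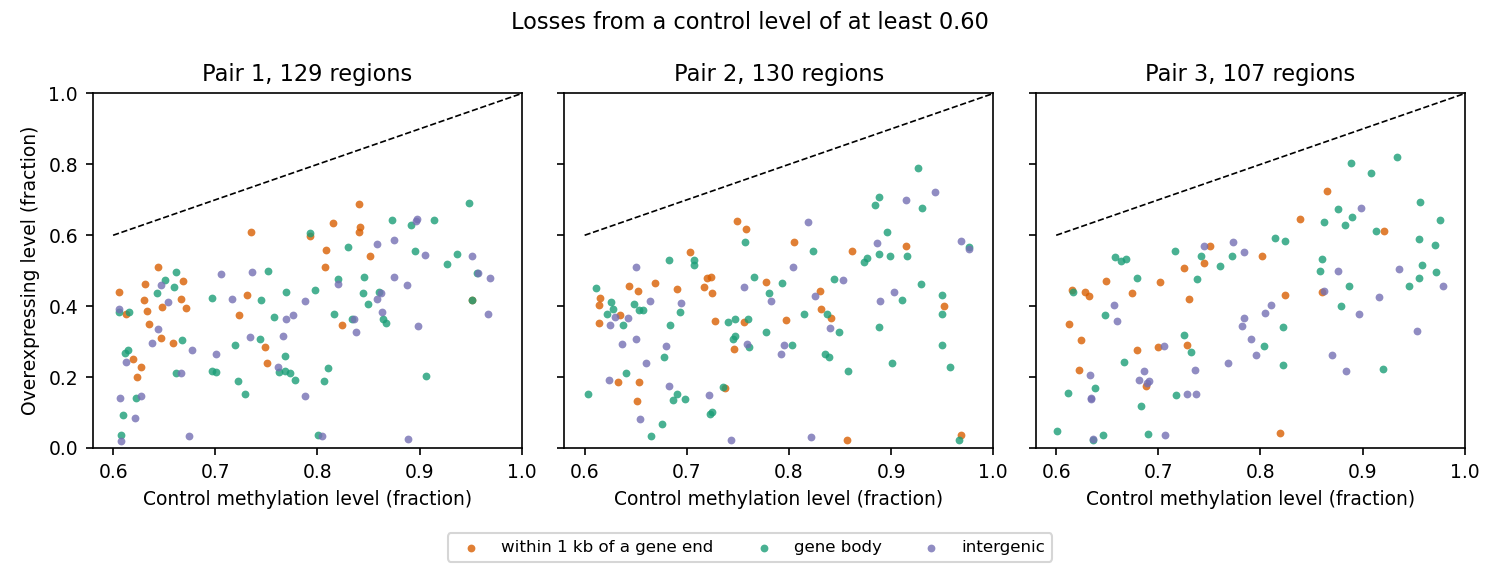
Methylation level of each member in the control library (x axis, fraction) and in the overexpressing library (y axis, fraction), 1 panel per pair and 1 point per region, coloured by position. The dashed line marks equal levels; most points lie between 0.2 and 0.6 on the y axis, with 24 regions under 0.1.

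The threshold divides a continuous range. Just inside it were regions in CNTLN (pair 3, from 0.6004 to 0.0489), in TAFA5 and LOC124900480 (pair 2, from 0.604 to 0.152) and in LINGO2 (pair 1, from 0.606 to 0.384). Just outside were regions in GRB10 (pair 1, from 0.598 to 0.568), in SAMD5 (pair 3, from 0.598 to 0.316) and 13072 bp from RPGR (pair 1, from 0.597 to 0.348).

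Among the listed members, the size of the drop went with the number of CpG sites in the region. The listed sites are cytosines counted on each strand, as the comparison with RefSeq sequence showed. Members with 4 to 7 sites numbered 149, and their median differences were -0.482, -0.501 and -0.490 in pairs 1, 2 and 3. Members with 8 to 15 sites numbered 104, with medians of -0.367, -0.381 and -0.406. In the 113 members with 16 or more sites the medians were -0.240, -0.262 and -0.226. Drops of more than 0.5 were 68 of 149, 16 of 104 and 1 of 113 in these classes. Only called regions are listed and the thresholds of calling are not given, so small drops over few sites may be missing. Reads per region are not in the lists, and the parts of calling and of read depth in this relation were not tested.

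**Figure D2:**
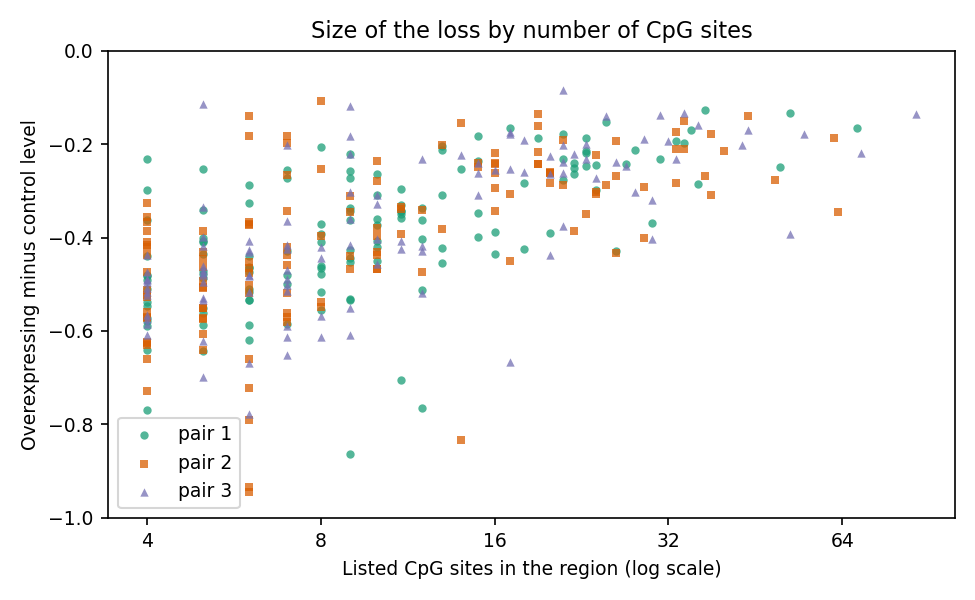
Difference of levels (overexpressing minus control, y axis) of each member by its number of listed CpG sites (x axis, log scale), with symbols for pairs 1, 2 and 3. Drops beyond 0.5 lie at regions with few sites, and 1 region with 16 or more sites passes that size. Only called regions are shown.

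The same classes differed in position. Within 1 kb of a gene end, meaning either end of a protein-coding or long noncoding RNA gene, were 16 of the 149 members with the fewest sites, 21 of the middle 104 and 51 of the 113 with the most. Within 1 kb of a gene start were 10 of 140, 15 of 100 and 52 of 111, counted over chromosomes with promoter windows. Members with many sites thus lay at gene starts more often than those with few in this count, which is given with no test. Gene starts were those of the promoter windows, and gene ends were the outer ends of the full gene. A region counted as gene body can therefore lie near a gene start, as in FAM53A, 384 bp from one.

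The 6 largest drops of each pair were mostly, but not all, at regions with few sites. In pair 2 a region in the noncoding gene LOC101928283 went from 0.967 to 0.0223 over 6 sites, and a region 214 bp outside PER1, a core clock gene, from 0.969 to 0.0356 over 6 sites. A region at the start of TMEM168 went from 0.857 to 0.0223 over 14 sites. These changes were close to a complete switch between the states. In pair 2 followed a region 22570 bp from LOC124901296 (from 0.822 to 0.0318), a region in ZNF331, an imprinted zinc finger gene (from 0.958 to 0.228), and a region 40198 bp from LOC124903228 (from 0.743 to 0.0211).

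In pair 1 the largest drop, 10360 bp from LINC01703, went from 0.889 to 0.0248 over 9 sites. A region 80426 bp from PRICKLE2, a planar cell polarity gene, went from 0.804 to 0.0346, and a region in WASF3, which encodes an actin-regulating WAVE protein, from 0.801 to 0.0359. The WASF3 region held 12 sites and lay 326 bp from a gene start. The others of pair 1 were in LOC107987097 (from 0.906 to 0.202), 39301 bp from LOC124907998 (from 0.787 to 0.146) and 12905 bp from CHCHD7 (from 0.675 to 0.0344).

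In pair 3 the region of GATAD1 and ERVW-1, the latter the syncytin-1 gene, went from 0.820 to 0.0410. A region in CCDC88C, whose product acts in WNT signalling, went from 0.920 to 0.223. The others were 35184 bp from GOLGA6L1 (from 0.706 to 0.0371), 45537 bp from LOC107984372 (from 0.884 to 0.217), in DDIT4L-AS1 (from 0.690 to 0.0379) and 41545 bp from RBFOX2, a splicing factor gene (from 0.954 to 0.331). The 18 regions held 4 to 17 sites. Of them, 16 were listed in their own pair only, 1 was lower again in another pair, and 1 went the other way. Of the 24 members that ended under 0.1, with a median of 6 sites, 0 were lower again and 2 were higher in another pair.

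Whether a member was listed again was the replicate check that the lists allow. Merging overlapping regions gave 350 distinct regions that held a member. Of these, 312 were listed in 1 pair only, 19 were lower in every pair that listed them, and 19 were listed in opposite directions. The count lower in every listing pair was 11 with a reciprocal overlap of 50%, and 9, 4 and 9 when pairs 1, 2 and 3 were left out in turn. Opposite directions were thus 50% of the 38 recurring members. Of all 723 merged regions listed in more than 1 pair, 628 were higher throughout, 37 lower throughout and 58 (8.02%) in opposite directions. Regions higher throughout hold no loss, so 8.02% is not a like share for members. Among recurring regions that held a loss, those with opposite directions (58) outnumbered those lower throughout (37). Gains are most of every list, so a member had more listed gains than losses to meet, and the shares are a description. Recurrence as a loss was found for 30 of the 113 member entries with 16 or more sites (26.5%), 2 of 104 with 8 to 15 sites and 2 of 149 with fewer. This leaves out the 2 RXRG entries, which were lower in pairs 1 and 2 but higher in pair 3 and are counted as opposite. Opposite directions were found for 14 of the 113 entries with 16 or more sites (12.4%), 3 of 104 and 3 of 149. Listing again thus went with more sites in either direction. A wider region has more room to overlap another, and its part in this was not tested.

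Between pairs the rates were alike. In pairs 1, 2 and 3, 9.30%, 10.8% and 9.35% of members met a loss of another list, and 6.20%, 5.38% and 4.67% met a gain. Members that met a loss numbered 12, 14 and 10, and 8, 13 and 10 of these met another member. Losses from under 0.60 met a loss of another list in 10.2%, 10.6% and 8.59% of cases. They met a gain in 8.03%, 12.9% and 7.36%, a higher share than that of members in each pair.

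Of the 19 regions lower in every listing pair, 13 lay within 1 kb of a gene end, 4 inside gene bodies and 2 in intergenic sequence. DNMT3A itself was the member lower in all 3 pairs. Its gene-body region (chromosome 2: 25247939-25248133, hg38), 3998 bp from the nearest gene start of the table, stood at 0.891, 0.896 and 0.889 in controls 1, 2 and 3 and at 0.628, 0.608 and 0.650 in the overexpressing libraries. The groups did not overlap and each was narrow. The difference was -0.263 ± 0.0244 (SD, n = 3). No test is given, because the rule used these levels. Among the 272 regions listed in all 3 pairs, 0.735% had every overexpressing library under every control, and limma called 0.735% lower and 96% higher. Whether reads came from the cell's own gene or from the introduced copy cannot be told apart here. A second DNMT3A region, listed in pair 3 only (chromosome 2: 25244126-25244178), went from 0.934 to 0.820.

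**Figure D3:**
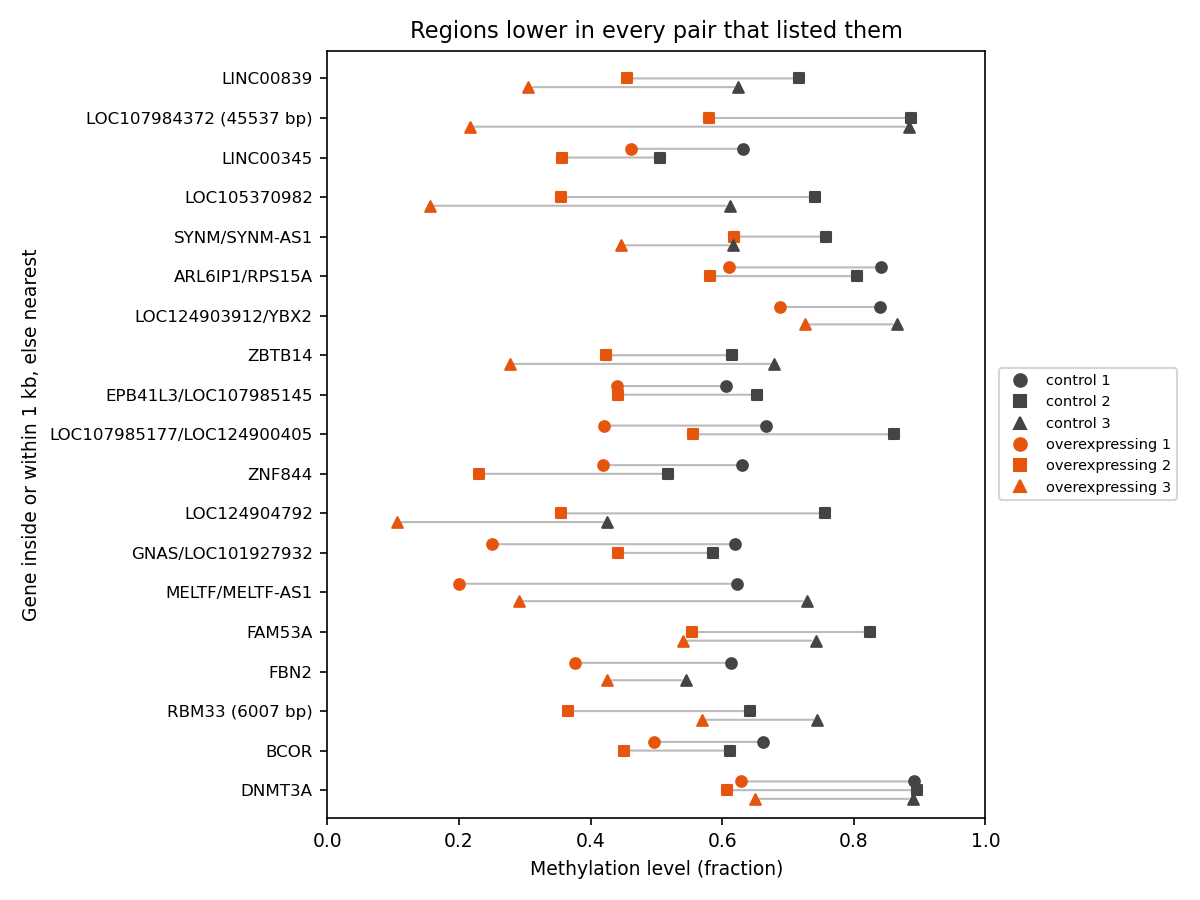
Methylation levels (x axis, fraction) of the 19 merged regions lower in every pair that listed them, 1 row per region named by its gene or, with a distance in bp, its nearest gene. Grey symbols are controls and orange symbols overexpressing libraries, joined within a pair; in each row orange lies left of grey within the pair.

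The other 18 regions were listed in 2 pairs and have no test over the 6 libraries. Coding genes with a region near an end came first. At MELTF, the melanotransferrin gene, and MELTF-AS1 (chromosome 3: 197003488-197003718), the level went from 0.623 to 0.199 in pair 1 and from 0.728 to 0.291 in pair 3, mean difference -0.430 ± 0.00942 (SD, n = 2). At ZBTB14, a zinc finger transcription factor gene (chromosome 18: 5296848-5297028), it went from 0.615 to 0.423 in pair 2 and from 0.679 to 0.277 in pair 3. These are unequal drops from similar controls. At EPB41L3, which encodes a membrane skeleton protein (chromosome 18: 5543612-5543894), it went from 0.606 to 0.440 in pair 1 and from 0.653 to 0.442 in pair 2, and a neighbouring member of pair 1, 236 bp away, went from 0.648 to 0.398.

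FBN2, the fibrillin-2 gene of extracellular microfibrils (chromosome 5: 128537726-128537995), went from 0.613 to 0.377 in pair 1 and from 0.544 to 0.424 in pair 3. ZNF844, a zinc finger gene (chromosome 19: 12064952-12065046), went from 0.630 to 0.418 in pair 1 and from 0.517 to 0.231 in pair 2. At both genes the second pair started under 0.60, outside the rule. Beside YBX2, a germ-cell RNA-binding protein gene (chromosome 17: 7294946-7295088), the level stayed high, from 0.840 to 0.689 in pair 1 and from 0.865 to 0.725 in pair 3.

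At SYNM, the gene of the intermediate filament protein synemin (chromosome 15: 99105605-99105713), the level went from 0.758 to 0.618 in pair 2 and from 0.616 to 0.446 in pair 3. This was the single region of the 19 whose groups overlapped, because the overexpressing library 2 stood just above control 3. The 19 were selected for a drop in each listing pair, so groups that lie apart are partly given by the selection. The share without overlap over all regions listed in 2 pairs was not counted. Between ARL6IP1, an endoplasmic reticulum-shaping protein gene, and RPS15A, a ribosomal protein gene (chromosome 16: 18790825-18790955), the level went from 0.841 to 0.610 in pair 1 and from 0.805 to 0.581 in pair 2, with 4 and 24 sites.

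At GNAS, the imprinted gene of the stimulatory G protein subunit, the region beside LOC101927932 (chromosome 20: 58888736-58888984), whose sequence is given above, went from 0.619 to 0.2497 in pair 1 and from 0.586 to 0.442 in pair 2. The controls were close to each other and the overexpressing libraries were not. The region beside LOC124900405 and LOC107985177 (chromosome 18: 75455769-75455841), also shown, had the same 24 sites in both pairs and went from 0.666 to 0.421 in pair 1 and from 0.861 to 0.555 in pair 2. The remaining gene-end regions were in or near LINC00839, LINC00345 and LOC124904792, with mean differences of -0.290, -0.159 and -0.360.

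Inside gene bodies, BCOR, the gene of a BCL6 corepressor that acts in a Polycomb complex (chromosome X: 40107572-40107717), went from 0.661 to 0.496 in pair 1 and from 0.611 to 0.451 in pair 2, mean difference -0.163 ± 0.00375 (SD, n = 2). FAM53A (chromosome 4: 1684697-1684910), 384 bp from a gene start, went from 0.824 to 0.555 in pair 2 and from 0.742 to 0.541 in pair 3. LOC105370982 went from 0.741 to 0.355 and from 0.611 to 0.155 in the same pairs, over 5 and 10 sites. The intergenic regions were 6007 bp from RBM33 (chromosome 7: 155787487-155787793, from 0.643 to 0.366 in pair 2 and from 0.745 to 0.570 in pair 3) and 45537 bp from LOC107984372, described above for pair 3, which stood at 0.887 and 0.579 in pair 2.

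The 19 regions listed in opposite directions had unequal controls. Among regions listed in 2 pairs, the 16 with opposite directions had a median gap of 0.390 between their controls (0.137 to 0.774) and 0.208 between their overexpressing libraries (0.0326 to 0.725). In the 18 lower in both pairs the median gaps were 0.0876 (0.00293 to 0.331) and 0.140 (0.00204 to 0.363). Opposite signs require such gaps, so these values describe the size and not an independent difference.

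Large changes in opposite directions were seen at regions with few and with many sites. In GSE1, over 4 sites, pair 1 went from 0.0349 to 0.655 and pair 2 from 0.665 to 0.0351. At the region near LINC01703, pair 1 went from 0.889 to 0.0248 and pair 3 from 0.115 to 0.750. CA8, which encodes a carbonic anhydrase-related protein, went from 0.817 to 0.377 in pair 1 and from 0.0933 to 0.582 in pair 2.

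Regions within 1 kb of a gene start were also listed both ways. At PLEKHG5, 26 sites went from 0.719 to 0.290 in pair 1 and from 0.307 to 0.582 in pair 2. At SLC16A12, a gene of the monocarboxylate transporter family, the level went from 0.797 to 0.447 in pair 1 and from 0.232 to 0.729 in pair 2. At MNX1, a homeobox gene, 63 sites went from 0.915 to 0.569 in pair 2 and 30 sites from 0.417 to 0.883 in pair 3. At each of these genes the control libraries of the listing pairs stood further apart than the overexpressing ones.

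GRB10, an imprinted gene of an adaptor that restrains insulin signalling, went from 0.429 to 0.659 in pair 1 and from 0.765 to 0.483 in pair 2. TBX4, a limb T-box gene, went from 0.778 to 0.327 in pair 2 and from 0.248 to 0.537 in pair 3. GRK4, a G protein-coupled receptor kinase gene, had a region 512 bp outside it that went from 0.842 to 0.624 in pair 1 and from 0.416 to 0.727 in pair 3. Smaller opposite differences were listed at SPHK2 and TEKT2, at VASH2, USP44, MGA and PDXDC1, and on chromosome 9 (133275170-133275226), 36867 bp from LOC124902294. The chromosome 9 region overlaps ABO, which the RefSeq table lists as a transcribed pseudogene, a class that was not used for positions.

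**Figure D4:**
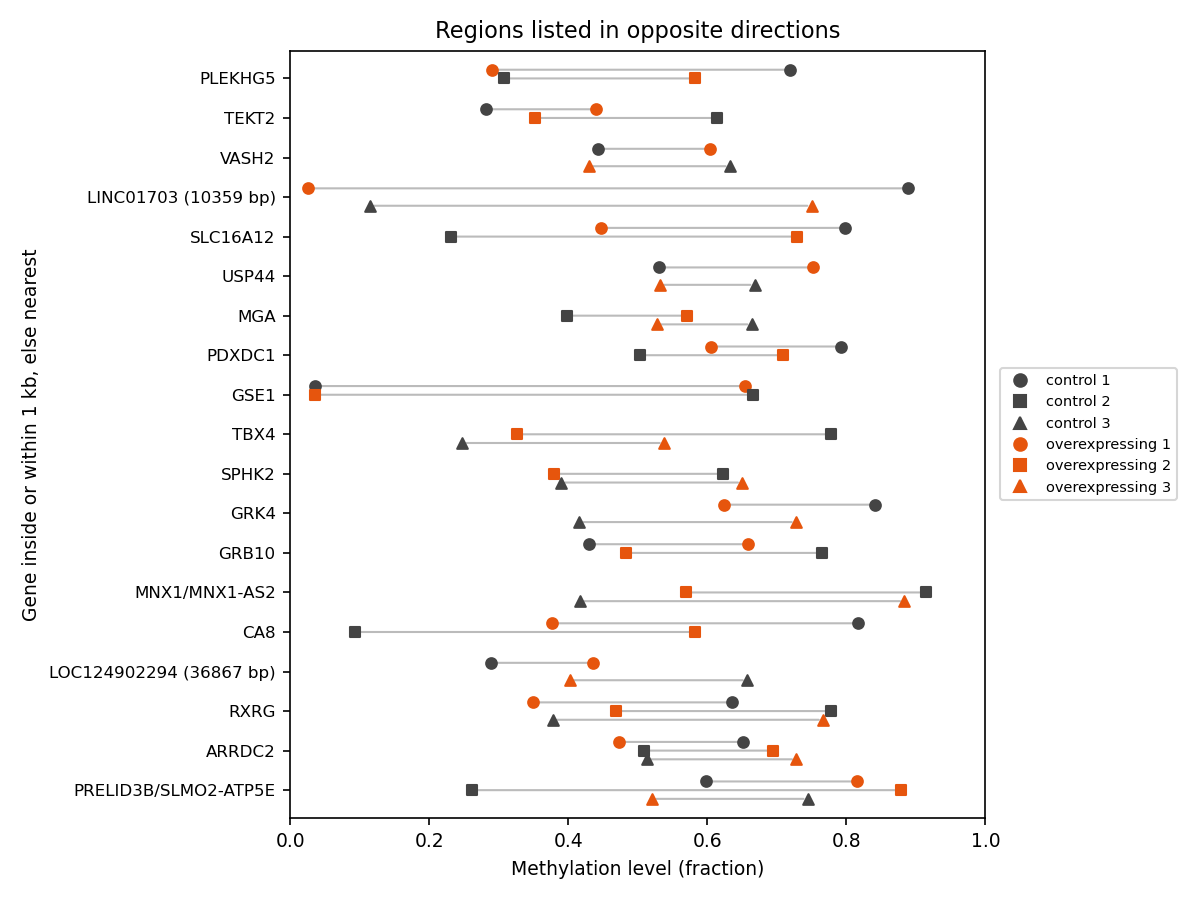
Methylation levels (x axis, fraction) of the 19 merged regions with a member that were higher in another pair, 1 row per region. Grey symbols are controls and orange symbols overexpressing libraries, joined within a pair; in every row the order of grey and orange differs between pairs.

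Of these, 3 were listed in all 3 pairs, and their groups overlapped. RXRG, which encodes retinoid X receptor gamma, stood at 0.635, 0.778 and 0.378 in controls 1, 2 and 3 and at 0.349, 0.468 and 0.766 in the overexpressing libraries. Pair 3 went against the others, and the mean difference was -0.0691 ± 0.397 (SD, n = 3). PRELID3B, a mitochondrial lipid transfer gene, stood at 0.598, 0.261 and 0.744 in the controls and at 0.816, 0.878 and 0.521 in the overexpressing libraries, with pair 3 alone lower. ARRDC2, an arrestin-domain gene, stood at 0.651, 0.509 and 0.513 in the controls and at 0.473, 0.694 and 0.728 in the overexpressing libraries, with pair 1 alone lower. At these 3 genes the differences of the pairs did not share a direction.

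Listed sites per length, region length and position did not enter the rule and were compared within pairs with exact sign-flip permutation tests, two-sided, over the 3 pairs, for which p = 0.25 is the smallest possible. Listed sites are the cytosines the lists count, not every CpG of the sequence. Members held fewer of them per length than losses from lower control levels in 3 of 3 pairs. Their medians were 9.80, 9.34 and 9.43 sites per 100 bp, against 16.3, 15.6 and 14.3, a mean difference of -5.87 ± 0.892 (SD, n = 3; exact permutation p = 0.25). Against gains, with medians of 10.8, 10.7 and 10.9, the difference was -1.26 ± 0.275 (exact permutation p = 0.25). It was -0.295 over regions with at least 5 sites and turned to 0.228 from a control level of 0.50. Members of at least 20 sites per 100 bp were 13.95%, 15.4% and 19.6% of the pairs' members, beside 31.4%, 32.6% and 31.9% of the other losses.

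Members lay near gene ends in 24.0%, 25.4% and 22.4% of cases, and losses from lower levels in 39.4%, 46.2% and 41.7%. The mean difference was -18.5 ± 2.81 percentage points, in the same direction in 3 of 3 pairs (exact permutation p = 0.25). Gains lay there in 20.9%, 20.8% and 23.5% of cases, and the difference of members from gains, 2.24 ± 2.95, did not exceed its spread (exact permutation p = 0.5). That difference turned to -3.79 with a 2 kb window and to -0.9996 from a control level of 0.70. With gene starts only, an alternative chosen after seeing the data, it was 5.11, and the difference from other losses was -16.4. Inside gene bodies lay 41.9%, 49.2% and 44.9% of members and in intergenic sequence 34.1%, 25.4% and 32.7%, beside 20.95%, 19.98% and 18.5% of gains in intergenic sequence. Median lengths were 90, 95 and 100 bp for members, 3 ± 1 bp above other losses and 8 ± 5.29 bp below gains (SD, n = 3; exact permutation p = 0.25 for both).

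**Figure D5:**
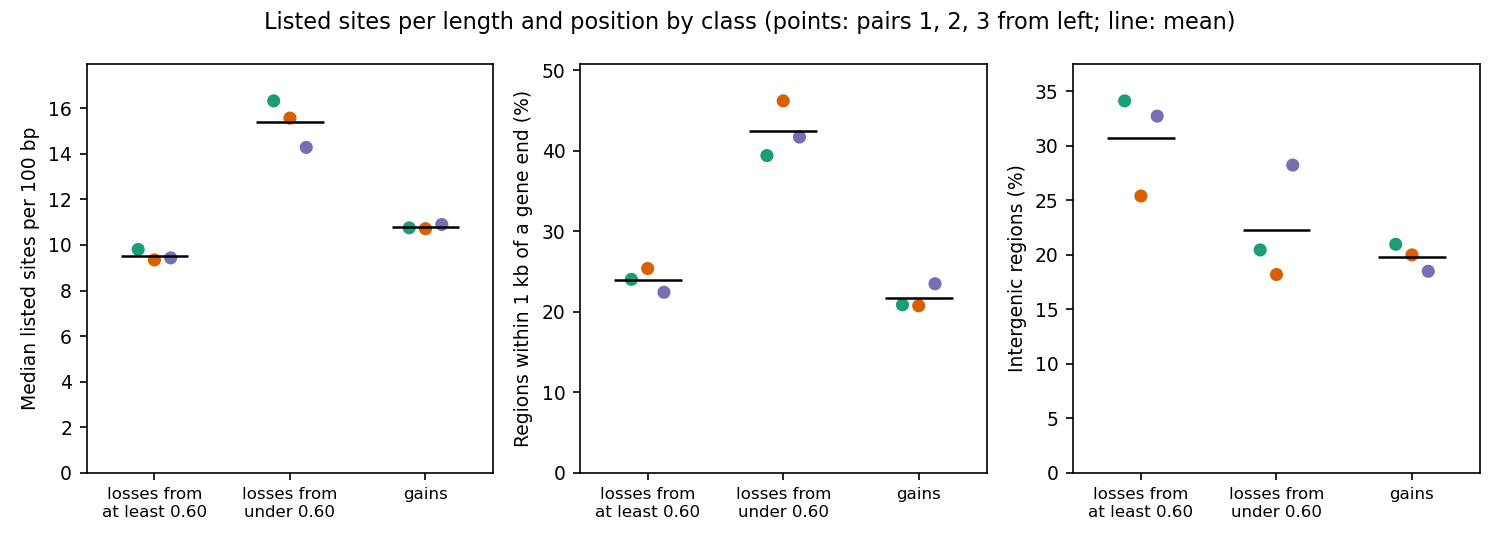
Median listed sites per 100 bp, share of regions within 1 kb of a gene end and share of intergenic regions (y axes) for losses from at least 0.60, losses from under 0.60 and gains. Points are pairs 1, 2 and 3 and the line is their mean; losses from at least 0.60 lie at 9.34 to 9.80 sites per 100 bp, below the other classes.

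The 10 members with the most sites ran over 148 to 419 bp and dropped by 0.134 to 0.393. USP44, the gene of a mitotic deubiquitinase, had 86 sites and went from 0.668 to 0.532 in pair 3. NKX1-1, a homeobox gene, had 69 and went from 0.725 to 0.507 in pair 3. FOXI3, a forkhead gene, had a pair of neighbouring members in pair 1, 94 bp apart, which went from 0.644 to 0.510 with 52 sites and from 0.808 to 0.510. The largest drop among these 10 was at ZSWIM6, with 52 sites, from 0.824 to 0.431 in pair 3. FAM174B (62 sites, pair 2) went from 0.643 to 0.457 and ITGB7, an integrin gene (55 sites, pair 3), from 0.617 to 0.439.

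Losses and gains could lie close together. Of the members, 11 had another listed region within 1 kb in the same pair, which was a gain for 5, another member for 4 and a lower-level loss for 2. At ZBTB14 in pair 3 a region 138 bp from the member rose from 0.295 to 0.542 while the member went from 0.679 to 0.277. At ZSWIM6 a region 210 bp away rose from 0.303 to 0.552. Members lay at more than 1 place in 11 genes, among them MEGF6, with a separate place in each pair (from 0.850 to 0.407 in pair 1, from 0.653 to 0.388 in pair 2 and from 0.972 to 0.497 in pair 3).

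Across all 38386 genes of the annotation, 276 (0.719%) had a member inside or within 1 kb, and 1875 (4.88%) had a gain. Gene lists were counted against this without a test. Of 22 genes of the methylation machinery, 1 had a member, DNMT3A, 2 had gains and 0 had losses from lower control levels. Of the 34 genes of a list of imprinted genes, 3 had members, 7 had gains and 6 had losses from lower control levels. Beside GNAS and GRB10, the gene with a member was KCNQ1, a potassium channel gene, whose region lay inside the neighbouring TRPM5 (from 0.720 to 0.478 in pair 2). The list is not complete: ZNF331 and PHLDA2, with a region 411 bp outside it (from 0.952 to 0.402 in pair 2), are imprinted genes outside the list. They are named because they had members and do not add to the count. Of 76 developmental transcription factors, 4 had members, 19 had gains and 8 had losses from lower control levels. Beside ZBTB14 those with members were GATA2, a haematopoietic factor gene (from 0.822 to 0.341 in pair 3), LHX1 (from 0.830 to 0.566 in pair 1) and NKX2-2 (from 0.751 to 0.499 in pair 1).

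Hepatocyte genes, lipid genes, WNT pathway genes and markers of other cell types had 0 members among 34, 29, 41 and 29 genes. Gains lay at 1, 2, 9 and 3 of these genes, and losses from lower control levels at 0, 0, 1 and 0. Of 30 genes known for methylation in cancers, 1 had a member, DLC1, a tumour suppressor gene (from 0.930 to 0.462 in pair 2). TEX14, of 26 germline genes, went from 0.888 to 0.707 in pair 2, and PER1 was the member among 16 clock genes. GRIN2D, an NMDA receptor subunit gene and 1 of 45 channel and neuronal genes, had members at separate places, from 0.873 to 0.642 in pair 1 and from 0.683 to 0.529 in pair 2. In the cancer, germline, clock and channel lists, 4, 1, 1 and 10 genes had gains. Losses from lower control levels lay at 1, 0, 0 and 5 of them. Per chromosome, members were from 5.29% of listed regions on chromosome 16 to 15.96% on chromosome 18, and 11 lay on X.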

How the data were processed

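RRBS was done on 6 libraries, 3 per group. Per the labels' protocols, genomic DNA was cut with MspI and treated with bisulfite. Coordinates are on hg38, a build named in the submitters' processing notes. Which aligner, region caller and thresholds made the lists is not given here. Per the file headers, the authors gave the mean level of a region in each library as a fraction, and a count of CpG sites. The deposited difference and area are scores with the sign of the change. Mapping rate and MspI cutting efficiency are the authors' percent values. A called region tends to show a larger difference than a fresh measurement would.

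The members and gene lists were chosen with earlier results of these data known. Regions overlapping by at least 1 bp were merged. Of 113 listed regions wholly inside a promoter window, all began and ended on a base of a CpG. Listed sites exceeded CpG dinucleotides in 109 and never CpG cytosines of both strands, so strands were counted separately. Genes were 20056 protein-coding and 18330 long noncoding RNA genes of GRCh38.p14. Distances to gene starts on chromosome 8 were not analysed here.

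Levels at 272 regions listed in all 3 pairs were fitted with limma 3.58.1 in R 4.3.3 (logit, offset 0.01, Benjamini-Hochberg adjustment, threshold 0.05), and the step was tested on simulated data. These regions were chosen by call and the members by the same levels, so no member's p is given. The p-values measure only the spread between libraries, which may be technical. The pairs are those of the deposited lists. Deviations from group means correlated at 0.393, 0.295 and 0.313 between same-numbered libraries. Such libraries share the bounds of the regions called in their pair, so the correlations cannot tell whether the cultures were paired. Named regions were those recurring, those with the 6 largest drops per pair, the 10 with most sites, those at the threshold and those in the lists. Alternatives changed the control level, site minimum, drop, overlap, gene window and gene set, the limma scale and block, and left out each pair.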

Additional observations from a re-analysis of the deposited data

How the results depend on the processing

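The number of members, 366 in the report, was 236 to 259 when each pair was left out, which takes away the members of that list. With a control level of 0.70 or 0.50, 245 and 510 were found. Regions lower again in another pair, 19 in the report, were 32 from a control level of 0.50, 12 from 0.70 and 11 with a reciprocal overlap of 50%, and 4 to 9 when a pair was left out, which leaves fewer lists to recur in; the lowest value came without pair 2. The gene-end difference of members from gains turned to -0.9996 percentage points from a control level of 0.70 and to -3.79 with a 2 kb window. Listed sites of members minus gains were 0.228 per 100 bp from a control level of 0.50. The differences from other losses kept their sign under every alternative run. With the replicate block, limma called 2 regions lower, as without it, and 3 without pair 3. The RXRG effect was -1.25 without pair 3. RXRG is a member in pairs 1 and 2, so that setting keeps only the pairs chosen for a drop there, and no conclusion is drawn from it. The RXRG effect was positive, 0.150 and 0.247, without pairs 1 and 2. The rule used these levels, so the counts and effects are descriptions. The depth of reads per region is unknown, which limits every level given for regions with few sites.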
